A study of Mus musculus with 12 samples.

Results

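Glycolysis, lactate handling and the control of pyruvate entry into mitochondria were followed through 36 genes, from the glucose transporters of the cell surface to the lactate transporters and the pyruvate dehydrogenase kinases. A gene belonged to the set if its symbol or synonym stood in a list made for this pathway (Pkm2 was accepted for Pkm), and it was represented by the transcript cluster, the group of probes along 1 transcribed region, with the highest mean over all 12 arrays. By this rule 32 of the 36 genes were measured, among 22180 genes measured in all. Gpi1, Pfkfb1 and Eno1 were named for no cluster in the annotation used here, and Aldoa was named only in a cluster that it shares with Aldoart1, so that these 4 genes were not analysed. The samples were left lung lobes of male C57BL/6J mice with no transgene, 6 housed for 3 days in a normobaric chamber at 10% oxygen (hypoxia) and 6 housed in room air at 21% oxygen (normoxia), with 1 array for each mouse. Their age is not given in the sources used here, and since the hypoxic mice alone lived in the chamber, low oxygen and housing cannot be told apart. All levels below are RMA values on a log2 scale, where a difference of 1 is a change of 2-fold, and each change is hypoxia minus normoxia.

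Glycolysis splits glucose into pyruvate in the cytosol and yields ATP without oxygen. Lactate dehydrogenase then turns pyruvate into lactate, which returns the NAD needed by the pathway and leaves the cell through monocarboxylate transporters, whereas pyruvate that enters mitochondria is oxidized by the pyruvate dehydrogenase complex unless the pyruvate dehydrogenase kinases switch that complex off. Many genes of the pathway are known targets of hypoxia-inducible factors (HIFs), transcription factors that are stabilized when oxygen is low, and most steps have several isozymes that differ between tissues.

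After RMA the array medians were 5.89 to 5.95 in normoxia and 5.89 to 5.92 in hypoxia, and the correlations between arrays were 0.9833 to 0.9895. Because RMA normalizes the arrays, near-equal medians do not show that their signal was alike before it. The tissue expressed its defining genes in both groups, with mean levels of 13.39 and 13.35 for Sftpc (surfactant protein C of alveolar type 2 cells), 13.16 and 13.16 for Scgb1a1 (the club cell secretoglobin), 11.92 and 11.87 for Ager (alveolar type 1 cells) and 9.24 and 9.16 for Cldn5 (the endothelial claudin), in normoxia and hypoxia respectively. The median change over all clusters was -0.02. Of the 32 genes, 24 had a mean above the median cluster level, and the 8 dim ones were Slc2a3, Hk3, Pfkm, Fbp1, Fbp2, Eno2, Pklr and Ldha.

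In hypoxia 9 of the 32 genes rose and 1 fell (limma with Benjamini-Hochberg adjustment over all clusters, adjusted p under 0.05), whereas 22 did not pass the test. The 9 that rose, 28.1% of the measured genes, were the glucose transporter Slc2a1, the phosphofructokinases Pfkl and Pfkp, the enzymes Tpi1, Gapdh, Pgk1, Bpgm and Pkm of lower glycolysis and its red cell branch, and the lactate dehydrogenase Ldha. For comparison, 3.9% of all measured genes were higher at the same threshold. The 1 gene that fell, the pyruvate dehydrogenase kinase Pdk2, made up 3.12% of the set, against 2.14% of all measured genes, so that its share was near the background. The rises were 1.16-fold to 1.69-fold and none reached 2-fold. The levels of the 6 hypoxic and 6 normoxic mice did not overlap for 8 genes (25.0%), against 5.7% of all measured genes, and each of these 8 was among the 10 past the test. The median change of the 32 genes was 0.08, against -0.01 over all measured genes. Among the 22 genes that did not pass, the change ran from -0.26 to 0.46, and 7 of them had an unadjusted p under 0.05. With the 10 called, 53.1% of the set was under that unadjusted threshold, against 19.5% of all measured genes. Lung lobes hold many cell types, and in such bulk samples more cells of a type and more RNA per cell cannot be told apart.

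**Figure D1:**
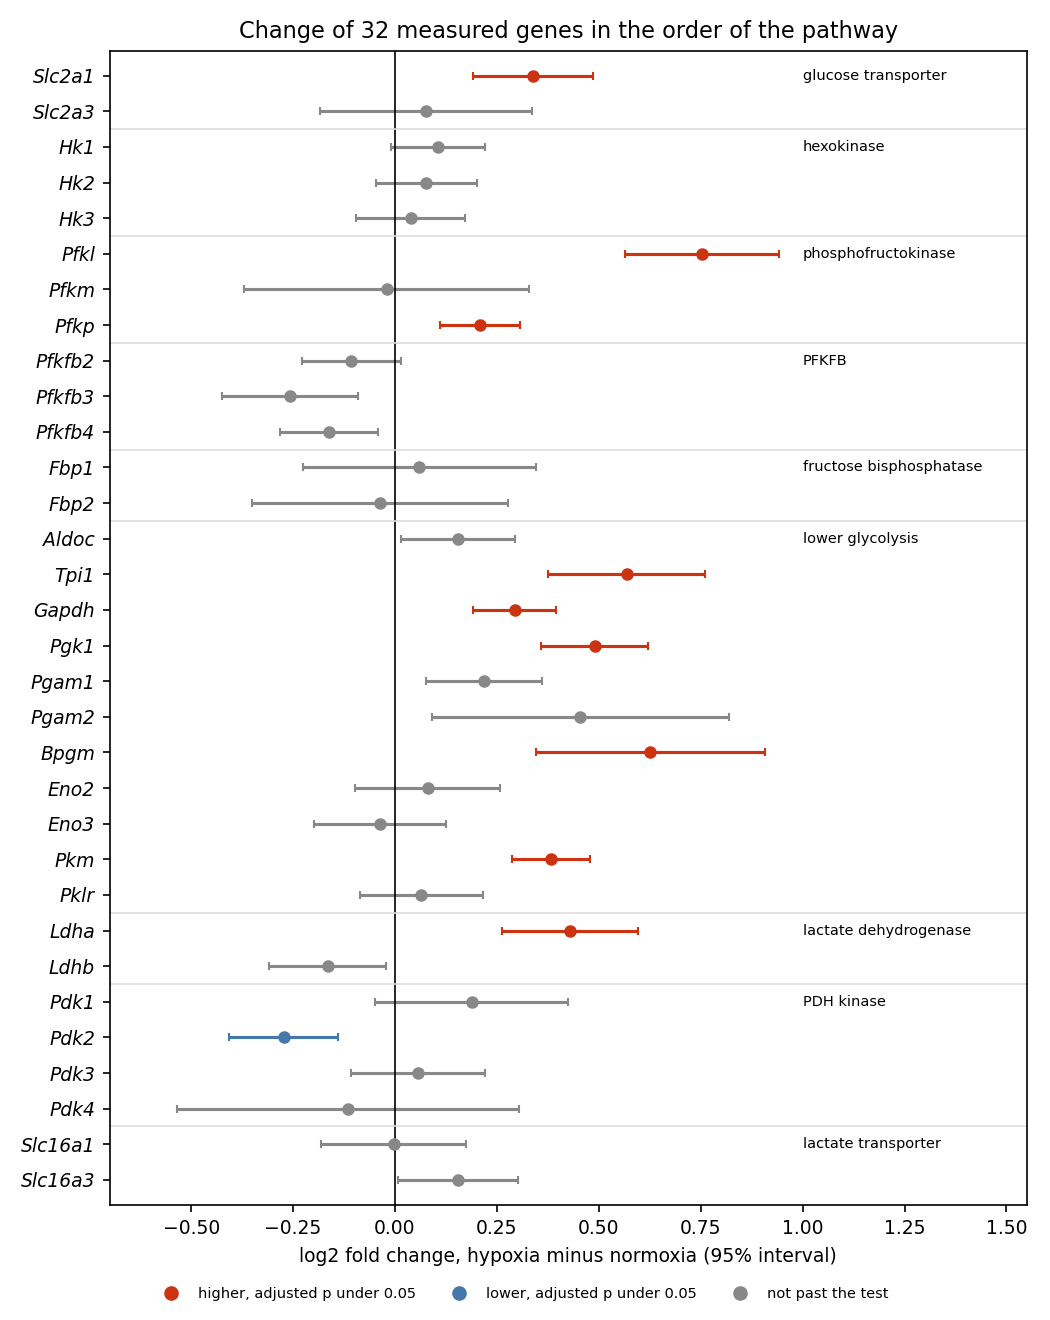
The x axis gives the log2 fold change of hypoxia minus normoxia for the 32 measured genes, listed on the y axis in the order of the pathway, with points for the estimate and bars for the 95% interval of limma (n=6 mice per group). The 9 genes in red lie at 0.21 to 0.75 with intervals above 0, Pdk2 in blue lies at -0.27, and the 22 genes in grey did not pass the adjusted test.

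Glucose enters most cells through facilitative transporters, and 2 of these were followed. Slc2a1 (GLUT1, the widespread basal glucose transporter; cluster 17417844) lay at 8.12 to 8.47 in normoxia (median 8.27) and at 8.51 to 8.70 in hypoxia (median 8.62). All 6 hypoxic mice were thus above all 6 normoxic mice, and the change was 0.34 (SE 0.07, adjusted p=0.0119). A second cluster with this symbol had a change of 0.18 and did not pass (adjusted p=0.239). Slc2a3 (GLUT3, known from neurons and white cells) was dim, with levels of 4.82 to 5.43 in normoxia and 4.95 to 5.47 in hypoxia, and its change of 0.08 did not pass (adjusted p=0.824). The next step, phosphorylation of glucose, showed no gene past the test. The hexokinases Hk1, Hk2 and Hk3 had changes of 0.11, 0.08 and 0.04 (adjusted p=0.358 to 0.828), and for Hk1, the hexokinase of most tissues, the 95% interval ran from -0.01 to 0.22.

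Phosphofructokinase commits the sugar to glycolysis, and its subunits come from 3 genes. Pfkl, the liver-type subunit, which red cells also use, showed the largest rise of the 32 genes. Its level (cluster 17242376) was 6.62 to 6.97 in normoxia (median 6.77) and 7.24 to 7.71 in hypoxia (median 7.57). Every hypoxic mouse was above every normoxic mouse, and the change was 0.75 (SE 0.09, adjusted p=2.65e-04), which is 1.69-fold. Pfkp, the platelet-type subunit (cluster 17290324), lay at 7.70 to 7.87 in normoxia (median 7.76) and at 7.95 to 7.99 in hypoxia (median 7.97). Its rise of 0.21 (SE 0.05, adjusted p=0.0189) was the smallest of the 9, but its 6 hypoxic mice lay within 0.04 of each other (SD 0.02, against 0.06 in normoxia). Pfkm, the muscle-type subunit, was dim and scattered, at 5.18 to 6.17 in normoxia and 5.21 to 5.78 in hypoxia, and its change of -0.02 did not pass (adjusted p=0.969).

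Fructose 2,6-bisphosphate, which the bifunctional PFKFB enzymes make and break down, is the strongest activator of phosphofructokinase. None of the 3 measured PFKFB genes passed the test, and all 3 estimates lay below 0. Pfkfb3, the isozyme known for high kinase activity and for induction by HIF in cultured cells, ranged from 7.65 to 8.04 in normoxia (median 7.78) and from 7.43 to 7.72 in hypoxia (median 7.48), so that the groups overlapped, with a change of -0.26 (SE 0.08, adjusted p=0.0883). Its call depends on which clusters enter the adjustment, since it fell past the threshold when dim clusters (adjusted p=0.04) or clusters without a single gene symbol (adjusted p=0.0461) were left out. Pfkfb4 and Pfkfb2 had changes of -0.16 (adjusted p=0.147) and -0.11 (adjusted p=0.38). Fructose bisphosphatases run the committed step backwards in gluconeogenesis. Fbp1 and Fbp2 were among the dim genes, and their changes of 0.06 and -0.04 were smaller than the spread between mice (SD 0.19 to 0.30).

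Lower glycolysis, from aldolase to pyruvate kinase, held 11 of the measured genes, of which 5 rose and 6 did not pass. Tpi1 (triose phosphate isomerase, which interconverts the 3-carbon sugars; cluster 17470879) was at 7.93 to 8.43 in normoxia (median 8.21) and 8.58 to 8.85 in hypoxia (median 8.82). The groups did not overlap, and the rise was 0.57 (SE 0.09, adjusted p=0.00242). Gapdh (glyceraldehyde 3-phosphate dehydrogenase, often taken as a constant reference gene; cluster 17260881) lay at 11.37 to 11.51 in normoxia (median 11.48) and at 11.70 to 11.83 in hypoxia (median 11.76). The groups did not overlap, and the cluster rose by 0.29 (SE 0.05, adjusted p=0.00282). A second Gapdh cluster was also higher (0.32, adjusted p=0.00355) and another was not past the test (0.30, adjusted p=0.0928). Gapdh has many pseudogene copies, and clusters shared with such copies were named for none of them. The gene lies on chromosome 6, like Tpi1 (cluster 17470879). The cluster used for Gapdh, 17260881, is numbered instead near that of Pgam2 (17260192), a gene of chromosome 11. That cluster may thus read a copy, and whether the Gapdh gene itself rose cannot be told here. Gapdh is counted among the 9 by its symbol.

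Pgk1 (phosphoglycerate kinase, the first ATP-yielding step; cluster 17537088) was at 8.87 to 9.15 in normoxia (median 9.05) and at 9.46 to 9.55 in hypoxia (median 9.53). The lowest hypoxic mouse lay well above the highest normoxic mouse, and the change was 0.49 (SE 0.06, adjusted p=4.28e-04). Pkm (pyruvate kinase of muscle and most other tissues; cluster 17518007) was at 9.48 to 9.60 in normoxia (median 9.55) and at 9.88 to 9.97 in hypoxia (median 9.92). With SDs of 0.04 in both groups and no overlap, its rise of 0.38 (SE 0.04) had the smallest adjusted p of the set (2.47e-04). The cluster values do not separate the splice forms PKM1 and PKM2. Bpgm (bisphosphoglycerate mutase, which makes the 2,3-bisphosphoglycerate that lowers the oxygen affinity of haemoglobin in red cells; cluster 17457171) was at 6.81 to 7.42 in normoxia (median 6.98) and at 7.37 to 7.93 in hypoxia (median 7.74). It rose by 0.63 (SE 0.13, adjusted p=0.0146), but the groups overlapped, since normoxic mouse 4 at 7.42 was above hypoxic mice 2 and 3 at 7.41 and 7.37.

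The other 6 genes of lower glycolysis did not pass. Pgam1 (phosphoglycerate mutase of most tissues, with known pseudogene copies; cluster 17404152) was at 8.26 to 8.53 in normoxia and 8.50 to 8.79 in hypoxia. Its change was 0.22 (adjusted p=0.0925), and a second cluster with its symbol, 17359466, had a change of 0.07 (adjusted p=0.802). Pgam1 lies on chromosome 19, but cluster 17404152 is numbered near that of Slc16a1 (17401335), a gene of chromosome 3. The cluster used may thus read a copy and not the Pgam1 gene. Pgam2, the muscle isozyme, had an estimate of 0.46 with a 95% interval of 0.09 to 0.82, but its hypoxic mice ran from 6.24 to 7.21 against 6.08 to 6.79 in normoxia and it did not pass (adjusted p=0.179). Aldoc, the brain-type aldolase, had a change of 0.16 (adjusted p=0.244). The neuronal and muscle enolases Eno2 and Eno3 had changes of 0.08 and -0.04, and Pklr, the pyruvate kinase of liver and red cells, had a change of 0.07.

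**Figure D2:**
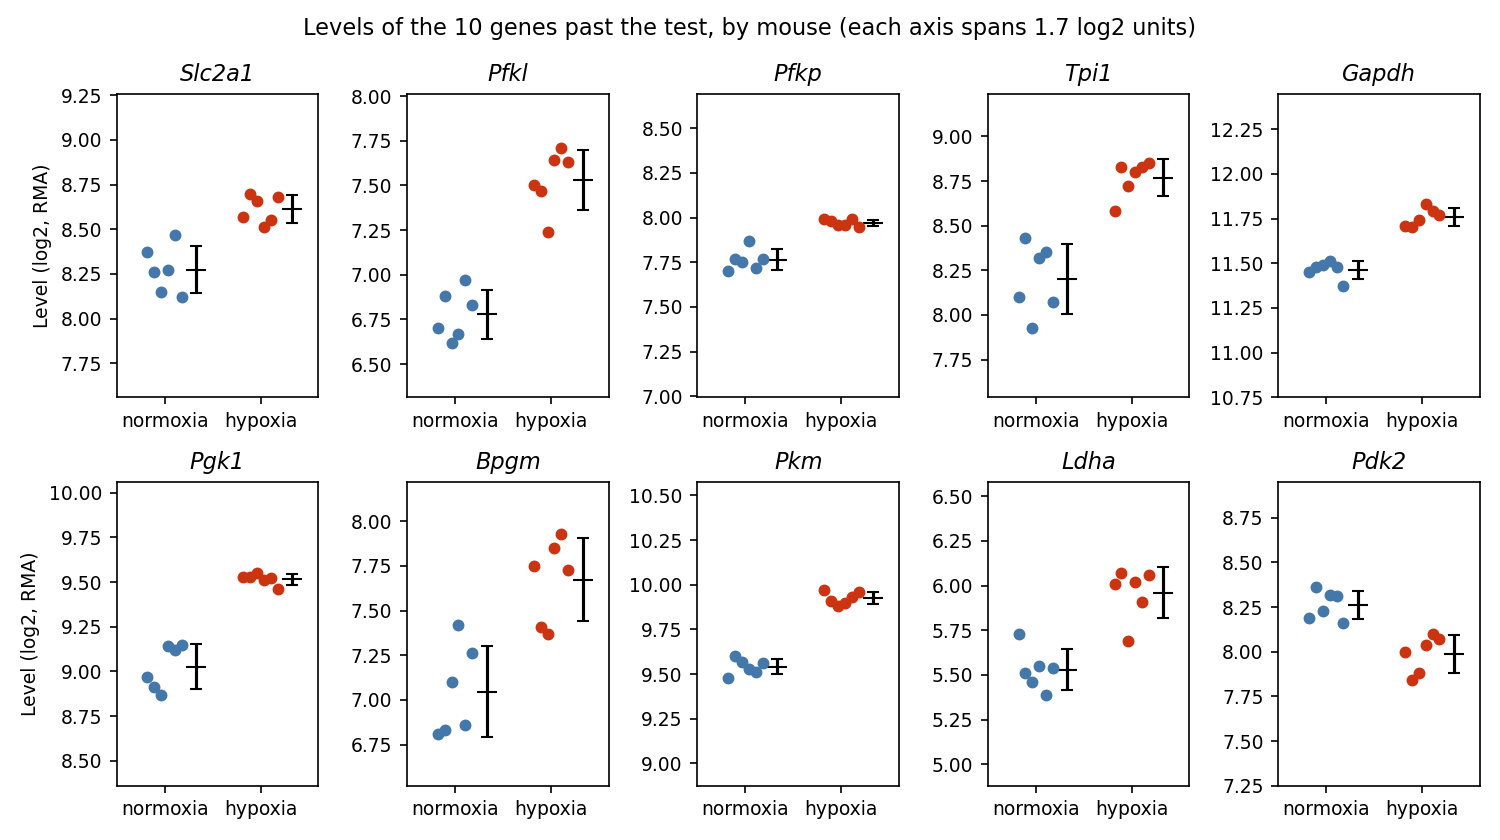
Each panel gives the log2 RMA level of 1 gene on the y axis by group on the x axis, with a point for each of the 6 mice in normoxia (blue) and hypoxia (red) and a bar for the mean and SD, and each y axis spans 1.7 log2 units. Points of the groups are separate for 8 of the 10 genes, while those of Bpgm and Ldha overlap, and Pdk2 is the gene with hypoxic mice below normoxic mice.

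The last step of fermentation is the reduction of pyruvate by lactate dehydrogenase, whose A subunit favours lactate and whose B subunit prevails in oxidative tissue. Ldha (cluster 17478225) was dim on this array, at 5.39 to 5.73 in normoxia (median 5.53) and 5.69 to 6.07 in hypoxia (median 6.02), and it rose by 0.43 (SE 0.08, adjusted p=0.00607). The groups touched, with 1 hypoxic mouse at 5.69 below the highest normoxic mouse at 5.73. Ldhb had a change of -0.17 (adjusted p=0.224), with levels of 9.17 to 9.47 in normoxia and 8.95 to 9.19 in hypoxia. The lactate carriers did not pass. Slc16a1 (MCT1) was at 5.73 to 6.26 in normoxia and 5.84 to 6.12 in hypoxia with a change of -0.00 (adjusted p=0.991), and Slc16a3 (MCT4, the exporter of glycolytic cells) had a change of 0.16 (adjusted p=0.275), with levels of 5.98 to 6.22 and 6.15 to 6.43.

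Pyruvate dehydrogenase kinases phosphorylate the pyruvate dehydrogenase complex and thereby hold pyruvate out of the mitochondrial citric acid cycle. Pdk2, the most widely expressed of them (cluster 17268120), was at 8.16 to 8.36 in normoxia (median 8.27) and at 7.84 to 8.10 in hypoxia (median 8.02). All 6 hypoxic mice were below all 6 normoxic mice, and the gene fell by 0.27 (SE 0.06, adjusted p=0.024). This call was the least stable of the 10, since it was lost when each array was centred on its median (adjusted p=0.0574) and in 5 of 12 runs that left out 1 mouse, with normoxic mice 2, 4 or 5 or hypoxic mice 2 or 3 left out (change of -0.30 to -0.24 over the 12 runs). Pdk1, the kinase known as a HIF target, had a change of 0.19 that did not pass (adjusted p=0.44), at 6.84 to 7.49 in normoxia and 7.35 to 7.73 in hypoxia. A second Pdk1 cluster had a change of 0.09 and did not pass either (adjusted p=0.652). Pdk3 had a change of 0.06 (adjusted p=0.79). Pdk4, the kinase induced by fasting and glucocorticoids, varied more between mice than any other gene of the set in hypoxia (SD 0.42, and 0.31 in normoxia), and its change of -0.12 did not pass (adjusted p=0.838).

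HIFs bind a short core with A or G in the first place, ACGTG or GCGTG, and the 250 bases before the start of each gene were searched for these 2 forms on both strands (RefSeq, GRCm38.p6). A window was found for 31 of the 32 genes. The following windows are shown, 5′ to 3′ on the strand of the gene with every match in capitals, since they belong to the gene with the largest rise, 2 rising genes with several matches, a rising gene with none and the gene that fell. They lie at chr10:78009808-78010057 (minus strand) for Pfkl, chrX:106186850-106187099 (plus strand) for Pgk1, chr7:46845554-46845803 (plus strand) for Ldha, chr6:124814159-124814408 (minus strand) for Tpi1 and chr11:95041372-95041621 (minus strand) for Pdk2. For Ldha and Pdk2, each with 2 starts in the table, the window of the outer start is shown.
Pfkl: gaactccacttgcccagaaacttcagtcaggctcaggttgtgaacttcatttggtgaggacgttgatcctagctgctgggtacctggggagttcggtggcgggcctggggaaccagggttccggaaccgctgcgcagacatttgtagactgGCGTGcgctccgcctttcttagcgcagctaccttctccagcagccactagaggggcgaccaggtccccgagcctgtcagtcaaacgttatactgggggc
Pgk1: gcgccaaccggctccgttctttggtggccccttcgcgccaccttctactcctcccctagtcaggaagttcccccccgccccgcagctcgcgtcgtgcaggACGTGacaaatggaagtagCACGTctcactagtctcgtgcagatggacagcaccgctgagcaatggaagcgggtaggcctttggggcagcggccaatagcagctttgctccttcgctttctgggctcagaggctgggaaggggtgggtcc
Ldha: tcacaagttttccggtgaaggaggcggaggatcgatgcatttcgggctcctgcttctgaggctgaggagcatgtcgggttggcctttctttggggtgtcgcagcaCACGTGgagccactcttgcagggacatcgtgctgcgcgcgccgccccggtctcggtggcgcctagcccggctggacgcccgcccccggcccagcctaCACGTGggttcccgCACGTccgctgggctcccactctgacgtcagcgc
Tpi1: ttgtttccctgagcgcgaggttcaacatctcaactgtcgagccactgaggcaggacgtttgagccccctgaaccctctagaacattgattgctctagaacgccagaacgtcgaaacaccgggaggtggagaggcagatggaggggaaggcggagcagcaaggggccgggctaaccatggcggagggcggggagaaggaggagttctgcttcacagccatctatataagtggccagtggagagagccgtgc
Pdk2: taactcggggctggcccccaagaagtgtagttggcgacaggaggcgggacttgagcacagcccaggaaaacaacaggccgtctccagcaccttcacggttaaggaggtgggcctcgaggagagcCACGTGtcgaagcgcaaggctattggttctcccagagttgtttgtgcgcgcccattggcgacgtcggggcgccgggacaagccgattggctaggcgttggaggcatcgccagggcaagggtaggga

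The window of Ldha held 5 matches, some of which overlap because CACGTG reads as the core on both strands, that of Pgk1 held 2, that of Pfkl 1 and that of Tpi1 none. The 2 matches of Pdk2 are both strands of a single CACGTG. Over the set, 25 of 31 genes (80.6%) had at least 1 match in the window of a start, against 47.8% of 16990 measured genes with a window. A gene with several starts was counted if any of its windows held a match. Of all 32851 starts 38.6% had a match, a share of single windows that is not of the same unit. The matches did not follow the direction of change, since 7 of the 9 genes that rose (77.8%), 17 of 21 that did not pass (81.0%) and the 1 that fell had one. The palindrome CACGTG, which is also the E-box of other factors, was present in 22.6% of the 31 genes and in 7.8% of the measured genes. These matches are letters in a window and not measured binding.

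Because isozymes of 1 step are measured on the same arrays, the question whether they changed by unequal amounts was asked within each mouse, on the difference of the 2 log2 levels (exact permutation test of 6 against 6 mice, two-sided, with Benjamini-Hochberg adjustment over 15 pairs; the smallest p this design allows is 0.00216). The change was unequal for 5 pairs. Pfkm and Pfkp changed less than Pfkl, by -0.77 (SE 0.17, exact p=0.00433, adjusted p=0.013) and -0.55 (SE 0.10, exact p=0.00216, adjusted p=0.0108). Ldhb, with a change of -0.17, and Ldha, with one of 0.43, differed in change by -0.60 (SE 0.10, exact p=0.00216, adjusted p=0.0108). Pklr changed less than Pkm, with a difference of -0.32 (SE 0.08, exact p=0.00216, adjusted p=0.0108). Among the kinases, Pdk2 and Pdk1 differed in change by -0.46 (SE 0.14, exact p=0.00433, adjusted p=0.013), although Pdk1 by itself did not pass the test over all clusters. The other 10 pairs did not pass (adjusted p=0.119 to 0.665), with differences of -0.30 to 0.24. They include Slc2a3 and Slc2a1, which differed by -0.26 (exact p=0.0909), so that an unequal change of these transporters was not shown even though Slc2a1 alone was called. Pfkm, Pklr and Ldha are among the dim genes.

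**Figure D3:**
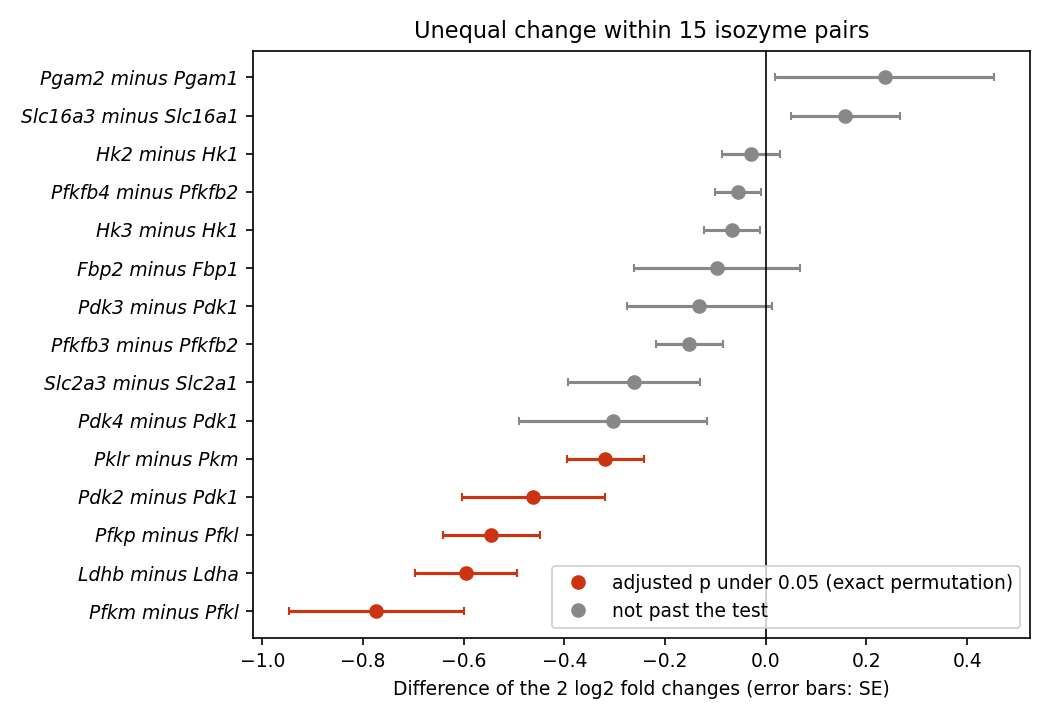
For 15 pairs of isozymes on the y axis, the x axis gives the log2 fold change of the first gene minus that of its reference (points, with SE as bars, n=6 mice per group). The 5 pairs in red, from Pfkm and Pfkl at -0.77 to Pklr and Pkm at -0.32, passed the exact permutation test after adjustment, and the grey pairs did not.

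Mice of 1 group differed in the mean deviation of the set, in which 22 of the 32 genes did not pass the test. Averaged over the 32 genes, the deviation from the normoxic mean was -0.05 to 0.04 in the normoxic mice and 0.08 to 0.22 in the hypoxic mice, lowest in hypoxic mice 1 and 2 and highest in mice 5 and 6. Pkm, Pgk1, Pfkp and Gapdh were even among hypoxic mice (SDs of 0.04, 0.03, 0.02 and 0.05), whereas Pfkl and Bpgm were spread more widely (SDs of 0.17 and 0.23). In hypoxic mice 1 to 6, in that order, Bpgm read 7.75, 7.41, 7.37, 7.85, 7.93 and 7.73, and Pfkl read 7.50, 7.47, 7.24, 7.64, 7.71 and 7.63. Both genes were thus lowest in mouse 3, next lowest in mouse 2 and highest in mouse 5. No test was made of this order, which was noticed in the data.

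**Figure D4:**
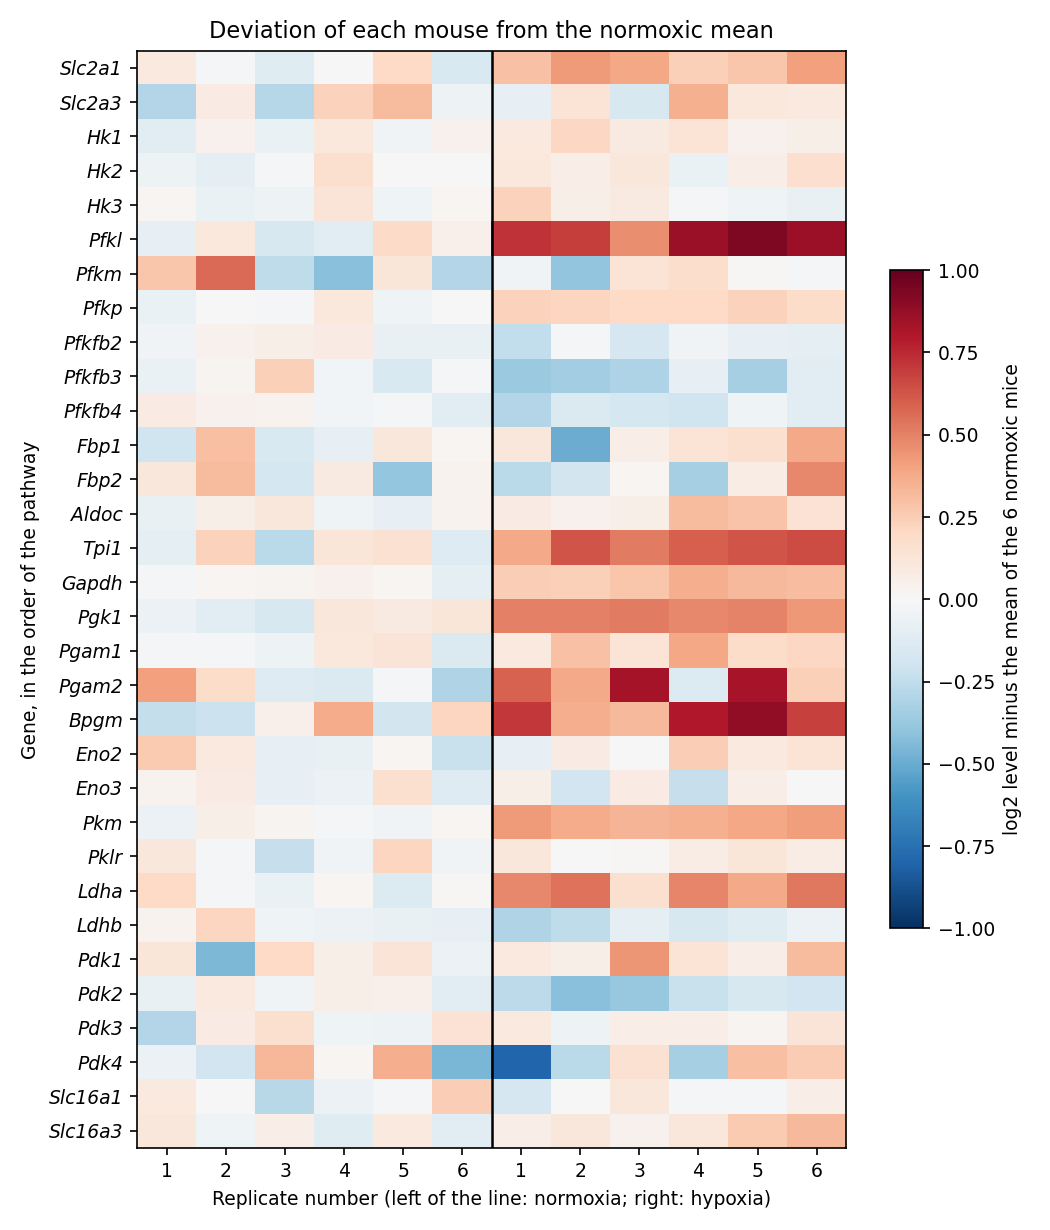
Colours give the log2 level of each gene (y axis, in the order of the pathway) in each of 12 mice (x axis, replicate number, normoxia left and hypoxia right of the line) minus the mean of the 6 normoxic mice. Pfkl, Tpi1, Pgk1 and Pkm are red in all 6 hypoxic mice, while Pgam2 is pale blue in hypoxic mouse 4 and Pdk4 runs from blue to red within both groups.

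Of the 14 listed erythroid markers 7 were measured, without the globins among them, and 4 of the 7 rose, namely Slc25a37 (the mitochondrial iron importer mitoferrin, 0.95, adjusted p=0.00183), Slc4a1 (0.83, adjusted p=0.0334), Trim10 (0.63, adjusted p=0.00489) and Fech (ferrochelatase, the last enzyme of heme synthesis, 0.57, adjusted p=0.0432). With 1 mouse left out, Slc4a1 held its call in the 4 of 12 runs without normoxic mouse 4 or hypoxic mouse 1, 2 or 3, and Fech in the 2 runs without hypoxic mouse 2 or 3, and neither passed a plain analysis of variance (adjusted p=0.0679 and 0.0773). In hypoxic mice 1 to 6, Slc4a1, the anion exchanger of the red cell membrane, read 6.66, 6.46, 6.16, 7.07, 7.48 and 7.34, and Slc25a37 read 9.29, 8.96, 8.93, 9.62, 9.55 and 9.53. Trim10 read 6.03, 5.86, 5.86, 6.22, 6.42 and 6.47, and Fech read 8.12, 7.75, 7.82, 8.50, 8.55 and 8.32 in the same mice. Mice 2 and 3 were thus the 2 lowest for each of these 4 markers, as for Bpgm and Pfkl, whereas the highest mouse was 5 for Slc4a1 and Fech, 4 for Slc25a37 and 6 for Trim10. The 3 other markers did not pass, with changes of 0.13 for Gata1, -0.03 for Epb42 and -0.16 for Klf1. Epb42, which did not rise, also had mice 2 and 3 as its 2 lowest (4.37 and 4.51) and was highest in mouse 4. Gata1 and Klf1 had other orders, both highest in mouse 1, with the lowest level in mouse 4 for Gata1 and in mouse 6 for Klf1. The order of Bpgm and Pfkl was not confined to erythroid markers. Cdh5 of the endothelial list and Napsa of the alveolar type 2 list did not pass the test. Both were likewise lowest in mouse 3, next lowest in mouse 2 and highest in mouse 5. How many other genes share this order was not counted. The erythroid list had a median change of 0.57 and a mean level of 5.98 to 6.07 in normoxia and 6.16 to 6.69 in hypoxia. The part of erythroid cells in the rises of Bpgm and Pfkl was not tested. Markers of other cell types were counted as well. Over all measured genes, 3.9% were higher and 2.14% lower at this threshold, so that 1 call in a short list says little about its cell type. All 7 smooth muscle markers rose (median 0.68, mean level 8.35 to 8.68 in normoxia and 9.11 to 9.54 in hypoxia), led by Acta2 at 1.24, and all 9 measured markers of proliferating cells rose (median 0.99, mean level 5.90 to 6.07 and 6.82 to 7.20), with Top2a at 1.45 the largest change. Of 10 endothelial markers 4 fell and 1 rose (median -0.19). Ednrb fell by 0.84 (adjusted p=3.98e-05) and Kdr by 0.39 (adjusted p=0.00403), each with no overlap and called in all 12 runs that left out 1 mouse, whereas the calls of Tek, Ramp2 and Emcn were each lost in 10 of the 12. Of 12 macrophage and monocyte markers C1qb rose by 0.80 (adjusted p=0.000215) and Siglecf fell by 0.47 (adjusted p=0.015), with a median of 0.08 over the list. Single epithelial markers fell, namely 1 of 8 of alveolar type 1 (Rtkn2 by 0.29, adjusted p=0.00809; list median -0.10), 1 of 9 of alveolar type 2 (Lpcat1 by 0.22, adjusted p=0.0296; list median -0.13, with 1 of the 9 estimates above 0) and 2 of 6 of airway cells (Tppp3 by 0.36, adjusted p=0.0261, and Cyp2f2 by 0.32, adjusted p=0.0275; list median 0.02). With 1 mouse left out, Rtkn2 kept its call in all 12 runs, while Lpcat1 lost it in 8, Cyp2f2 in 7 and Tppp3 in 4. Of 10 T and NK cell markers 1 fell (Cd3g by 0.61, adjusted p=0.0288; list median -0.32), a call that was lost in 6 of the 12 runs and under an analysis of variance (adjusted p=0.0569). None of 10 neutrophil and none of 13 striated muscle markers passed, although the mean level of the latter ran from 7.16 to 7.77 in normoxia and from 6.94 to 8.0 in hypoxia, beside the wide spread of Pgam2. What part these cell types had in the changes of the glycolytic genes was not tested.

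Genes of adjoining pathways were counted in 8 further lists, in which 7 of 88 measured genes (7.95%) passed the test in either direction, against 6.03% of all measured genes, so that this share was near the background. None of 8 other glycolytic enzymes (median change -0.10), none of 11 other hexose transporters (0.05), none of 8 genes of the pentose phosphate pathway (-0.01), none of 7 of gluconeogenesis (0.06) and none of 9 of pyruvate entry and oxidation (0.06) passed the test in either direction. In the last list Pdha1, the catalytic subunit that the kinases phosphorylate, had a change of 0.19 (adjusted p=0.169), and the mitochondrial pyruvate carrier subunit Mpc1 had one of -0.20 (adjusted p=0.485). Of 18 glycogen genes 2 rose, Gyg (glycogenin, the primer of glycogen, 0.49, adjusted p=8.03e-05) and Ugp2 (which makes UDP-glucose, 0.20, adjusted p=0.02), while the median of the list was -0.00. Of 8 other lactate and monocarboxylate genes, Bsg (basigin, the partner that carries MCT1 and MCT4 to the membrane) rose by 0.20 (adjusted p=0.0439). This call held only when normoxic mouse 4 or hypoxic mouse 1 was left out and was lost in the other 10 of 12 runs that left out 1 mouse (change of 0.19 to 0.22).

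Among 19 measured regulators of the pathway 1 rose and 3 fell. Hif1a, the HIF alpha subunit best known for control of glycolytic genes, rose by 0.37 (adjusted p=0.00585), whereas Epas1, which encodes the endothelial-rich subunit HIF-2 alpha, fell by 0.24 (adjusted p=0.0134). Txnip, which limits glucose uptake through GLUT1, fell by 0.24 (adjusted p=0.0396), and Ppargc1a, a coactivator of mitochondrial genes, fell by 0.32 (adjusted p=0.0338). The last 2 calls were each lost in 10 of 12 runs that left out 1 mouse, and held only without normoxic mouse 6 or hypoxic mouse 6 for Txnip and without normoxic mouse 6 or hypoxic mouse 3 for Ppargc1a. Egln3, a HIF prolyl hydroxylase that HIF itself induces, had a change of 0.49 that did not pass (adjusted p=0.0852).

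**Figure D5:**
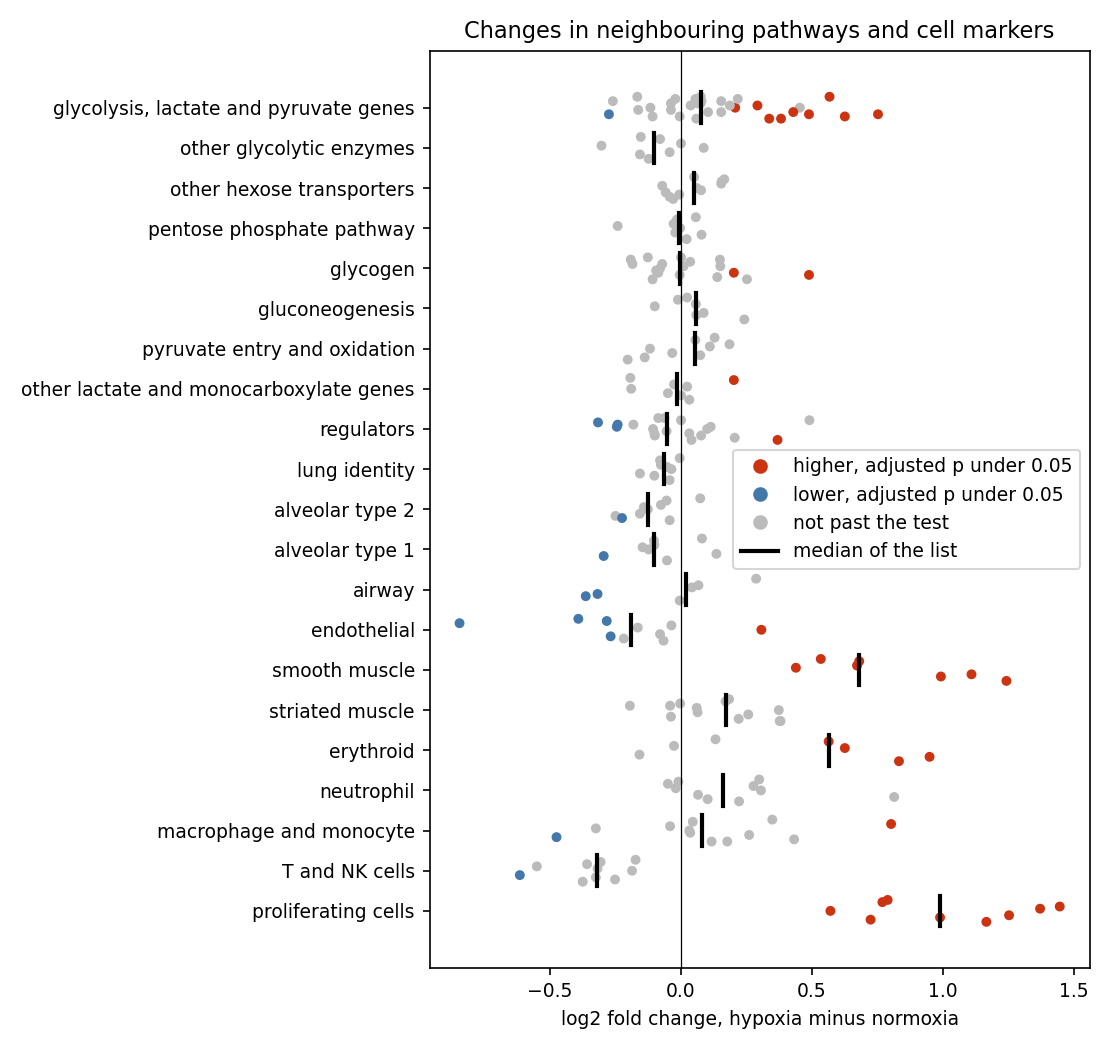
Each point is the log2 fold change of 1 gene (x axis, hypoxia minus normoxia) in the glycolytic set, the 8 lists of adjoining pathways and the 12 lists of cell markers (y axis), with black lines at the medians and colours for the adjusted test. Medians are 0.08 for the glycolytic set, 0.68 for smooth muscle, 0.57 for erythroid and 0.99 for proliferating cell markers, and -0.32 for T and NK cells.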

How the data were processed

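Lung RNA of 6 hypoxic and 6 normoxic mice was measured on whole-transcript GeneChips (Mouse Gene 2.0 ST), 1 for each mouse. The deposited log2 levels were made by the authors with RMA (Affymetrix Expression Console), which corrects background, normalizes and summarizes probes; no version or genome build is given in the sources used here. RMA gives no signal over background and the number of mice limits precision. Of 41345 rows, 190 control rows were left out. Of the remaining 41155 clusters, 23521 carry 1 gene symbol, 1820 carry several and were named for none, and 15814 are unnamed here. Symbols came from the platform annotation. A check by gene number against the RefSeq mouse table (GRCm38.p6), which also gave the promoter windows, changed 0 symbols.

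Groups were compared in R 4.3.3 by lmFit and eBayes of limma 3.58.1 (neither trend nor weights), two-sided, over all clusters, with Benjamini-Hochberg adjustment and a threshold of 0.05; no filter on level or fold was set. The study's methods name an anova, which is an alternative here. The genes named are all members of the set, of each pathway list the genes past the threshold (at most 6, by p) and of each marker list at most 4 of these and the defining markers. Sftpc, Scgb1a1, Ager and Cldn5 are defining markers, and Pdha1, Mpc1, Egln3, Ramp2, Gata1, Epb42 and Klf1 fall outside it, having been picked with their values in view. The members and lists were chosen with earlier results of these data known. Isozyme pairs were tested by exact permutation over mice. The scripts were tested on simulated arrays. Alternatives were other forms of the test, array weights, renormalization, filters, a replicate block, a stricter threshold, the mean over the clusters of a gene and each mouse left out. The labels give separate mice as replicates, and shared replicate numbers were not taken as pairs. Tables and permutation tests were made with pandas 2.3.3 and numpy 2.4.6 in Python 3.11.15, and plots with matplotlib 3.10.9.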

Additional observations from a re-analysis of the deposited data

Results flagged for a closer look

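Among 142 groups of 6 mice searched with Dixon's test, 5 had 1 mouse far from the others, 2 of them among the 64 groups of the glycolytic set; chance flags about 1 in 20 groups. Pfkm was lowest in hypoxic mouse 2 at 5.21, with the nearest mouse at 5.57. Fbp1 was lowest in the same mouse at 4.12, with the nearest at 4.69. Both genes were dim. Among the marker genes, Acta2 was lowest in normoxic mouse 4 at 9.61 (nearest 9.92), Myh11 was lowest in hypoxic mouse 4 at 9.33 (nearest 9.70), and Bub1 was highest in hypoxic mouse 2 at 6.14 (nearest 5.80).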

How the results depend on the processing

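Of 312 values of the 32 genes under the alternatives that keep all mice and the threshold of 0.05, 302 kept their direction and their side of the threshold. The number of genes that rose was 9 in all 12 runs that left out 1 mouse, with each of the 9 called in every run, and the number that fell was 0 to 1. The number that fell was 0 with each array centred on its median, 2 with dim clusters left out and 2 with only clusters of 1 gene symbol (Pfkfb3 added in both), 0 with a replicate block and 0 at an adjusted p of 0.01, where 6 rose. With dim clusters left out, Ldha and the 7 other dim genes were not tested. The cluster used for Pgam1, which may read a copy, was then higher (adjusted p=0.04). The numbers of the labels gave little sign of pairs (correlation of same-numbered mice -0.01 to 0.07). Only the mice numbered 4 were each other's best match across the groups (0.07). With the replicate block 7 genes rose, as Slc2a1 (adjusted p=0.0833), Pfkp (0.114) and Pdk2 (0.103) were lost, and 0 isozyme pairs passed in the paired sign-flip test, whose smallest p is 0.0312. Of the list genes called in all 12 runs, Epas1 (adjusted p=0.081), Ugp2 (0.119) and Siglecf (0.0595) lost their calls with the block. Among the 15 pairs, 5 to 6 passed with 1 mouse left out and the 5 named were not lost in any run. Genes near 0 changed sign. Slc16a1 was at 0.0142 and Pfkm at 0.001 after a second quantile normalization, and Slc16a1 at 0.0167 with centred arrays. With 1 mouse left out, the ranges were -0.104 to 0.0937 for Pfkm, -0.0017 to 0.0883 for Pdk3, -0.0593 to 0.0467 for Slc16a1, -0.139 to 0.0267 for Fbp2, -0.207 to 0.02 for Pdk4, -0.063 to 0.0023 for Eno3 and -0.004 to 0.172 for Fbp1. The cause of these shifts was not tested. The arrays give no background, so that small changes of the dim genes may be missed.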
